A study of Mus musculus with 10 samples.

Results

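A group of 10 neuropeptide genes of the cerebral cortex was followed through single cells of the mouse medial prefrontal cortex. The 10 genes were Npy, Sst, Vip, Cck, Tac1, Tac2, Crh, Grp, Adcyap1 and Crhbp, chosen by symbol, and each matched 1 identifier among the 30406 genes that were in the gene lists of all 10 libraries. The tissue came from male C57BL/6N mice, an inbred strain, that were over 2 months old and whose place in a social hierarchy had been set with the tube test, in which the animal that retreats from a narrow tube loses. Of the 10 libraries, 5 were of dominant animals (rank 1) and 5 of subordinate animals (rank 4), each made from the pooled tissue of 2 to 3 mice, and the labels name no transgene or drug. Replicates in this text are therefore pools of mice.

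Neuropeptides are made as larger precursors, cut by prohormone convertases, stored in dense-core vesicles and released to act on G protein-coupled receptors, often at some distance from the site of release. In the cortex many are made by GABAergic interneurons, and somatostatin and vasoactive intestinal peptide lend their names to interneuron classes. Others, such as cholecystokinin, are also made by glutamatergic projection neurons. All of the genes but Crhbp encode peptide precursors, and Crhbp encodes a secreted protein that binds corticotropin-releasing hormone and limits its action.

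The libraries held 4442750 to 29278466 unique molecular identifiers (UMIs, which count captured RNA molecules) over 1838 to 15826 barcodes. After filters on genes, mitochondrial RNA and doublets, 45864 of 64937 barcodes were kept, with a median of 1328 to 2675 UMIs per cell depending on the library. No pair of libraries shared more than 1.70% of the barcodes of its smaller member (104 barcodes shared by replicate 1 of rank 1 and of rank 4). Cells were clustered with the 10 genes left out and named from marker lists that held none of them, so the names "Sst-like" and "Vip-like" do not rest on Sst or Vip. Defining markers of cortical tissue were present, with 16486 excitatory neurons, 2241 inhibitory neurons, 8999 astrocytes, 3180 oligodendrocyte precursors and 3616 microglia among the kept cells. Among the excitatory neurons, 5000 cells were named L2/3 IT-like (intratelencephalic neurons of layers 2 and 3), 2661 L5 IT-like, 2328 L6 IT-like, 1051 L5 PT-like (pyramidal tract), 846 L5/6 NP-like (near-projecting) and 4009 L6 CT-like (corticothalamic). Among the inhibitory neurons, 426 were Sst-like, 391 Pvalb-like, 376 Vip-like, 282 Lamp5-like and 129 Sncg-like, and the rest stayed in unnamed clusters. The L2/3 IT-like cells included a cluster of 2714 cells with a median of only 1014 UMIs, in which Sst, Apoe and the oligodendrocyte gene Mobp stood among the leading genes beside the layer marker Otof. The Sncg-like cluster was led by Tac2, Vip and Htr3a as well as by its markers Sncg and Cnr1.

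Positions are those of the GRCm38 build (GENCODE M21 annotation). Npy (ENSMUSG00000029819) spans positions 49822710 to 49829507 of chromosome 6 on the plus strand, with up to 4 exons. Tac1 (ENSMUSG00000061762) lies on the same chromosome and strand, from 7554879 to 7565834. Sst (ENSMUSG00000004366) spans 23889573 to 23890958 of chromosome 16 on the minus strand, in 2 exons. Vip (ENSMUSG00000019772) spans 5639218 to 5647617 of chromosome 10 and Tac2 (ENSMUSG00000025400) 127724478 to 127731768 of the same chromosome, both on the plus strand. Cck (ENSMUSG00000032532) spans 121489824 to 121495694 of chromosome 9 on the minus strand. Crh (ENSMUSG00000049796) spans 19693401 to 19695396 of chromosome 3 on the minus strand. Crhbp (ENSMUSG00000021680) spans 95431371 to 95444924 of chromosome 13 on the minus strand. Adcyap1 (ENSMUSG00000024256) spans 93199017 to 93206537 of chromosome 17 on the plus strand. Grp (ENSMUSG00000024517) spans 65872820 to 65886596 of chromosome 18 on the plus strand and overlaps the gene model AC152076.4 on the minus strand.

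Levels are given as CPM, the UMIs of the gene scaled to a fixed total of UMIs of the cells of a type in a library, as the mean ± SD over libraries with at least 10 cells of the type. They describe the types and carry no test, since each type was defined from the same cells. Levels are compared between cell types and not between genes.

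The cyclic AMP response element was first described in the somatostatin promoter, and stimulus-dependent transcription of several neuropeptide genes runs through it, so these stretches are shown for the genes in which the search found it. RefSeq promoter entries (GRCm38.p6) were at hand for 8 of the 10 genes. The 250 bases before the transcription start were searched on both strands for the full element TGACGTCA and its core TGACG, which the full element contains. Of the 8 promoters, 6 held the core. In all, 17.8% of 32851 RefSeq promoters held the core and 1.55% the full element in a window of the same length. The stretches of 30 bases below run 5′ to 3′ on the gene's strand, with the matching letters in capitals.
Sst, chr16:23890874-23890903, minus strand: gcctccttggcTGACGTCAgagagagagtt
Vip, chr10:5639127-5639156, plus strand: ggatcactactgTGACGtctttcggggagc
Cck, chr9:121495724-121495753, minus strand: cctgctggactgCGTCAgcactgggtaaac
Tac1, chr6:7555006-7555035, plus strand: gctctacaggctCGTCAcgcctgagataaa
Crhbp, chr13:95444878-95444907, minus strand: gagctggaccctCGTCAttgccacgcattt
Adcyap1, chr17:93198914-93198943, plus strand: ggactaggatgcTGACGtcttttactgata
Positions count from the start of the RefSeq entry. In Sst, Tac1 and Crhbp that start lies inside the GENCODE span given above, and so do the stretches shown. The full element stood in Sst alone, 48 bases before the RefSeq start (positions -48 to -41). The core began at position -79 in Vip, -47 in Cck, -43 in Tac1, -64 in Crhbp and -91 in Adcyap1. The promoters of Npy and Tac2 held no match in the window searched. A match is a description of the letters and was not related to the levels given next.

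Each of the 10 genes had its highest mean level in a named neuron type, and 8 of them in a type of interneuron. Npy was highest in Lamp5-like, Sst and Crhbp in Sst-like, Vip and Crh in Vip-like, Cck and Tac2 in Sncg-like and Tac1 in Pvalb-like neurons. Grp and Adcyap1 were highest in excitatory neurons of the deep layers, in L5/6 NP-like and L5 PT-like neurons. Both neuron classes held more UMIs per cell than glia, so their shares of cells, given next, are smaller than their shares of all UMIs. Inhibitory neurons made up 4.89% of the kept cells and held 75.7% of all Sst UMIs, 77.8% of Vip, 70.5% of Npy, 79.1% of Crh, 78.6% of Crhbp, 72.8% of Tac2 and 69.3% of Tac1 UMIs. Excitatory neurons, at 35.9% of the cells, held 73.2% of the Cck, 83.8% of the Grp and 87.2% of the Adcyap1 UMIs. The map of mean levels by gene and cell type shows this division.

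**Figure D1:**
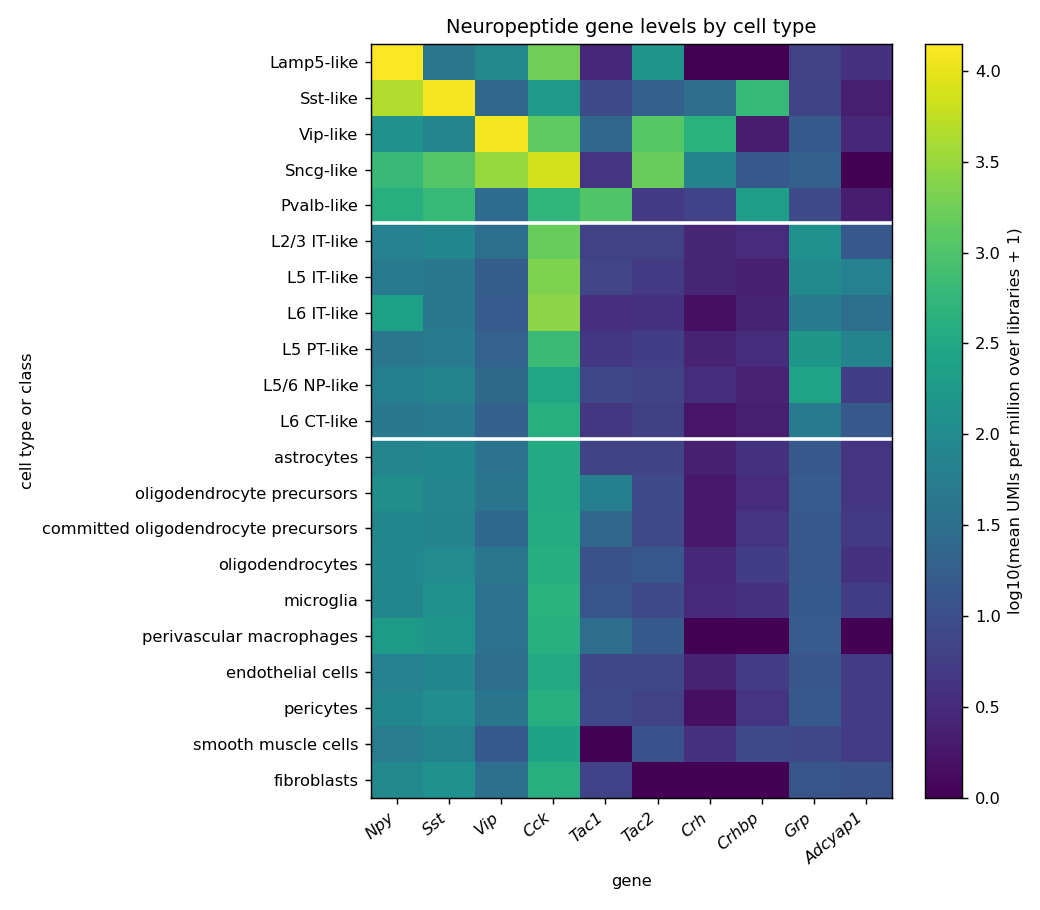
Mean level of each gene (columns) in each named cell type or class (rows), as the log10 of the mean CPM over libraries plus 1, with white lines between interneurons, excitatory types and other cells. Npy is brightest in Lamp5-like, Sst in Sst-like and Vip in Vip-like neurons, Cck is high in the IT-like types too, and Grp and Adcyap1 stand out only within the excitatory rows.

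Neuropeptide Y, an abundant inhibitory peptide of the cortex, was highest in Lamp5-like cells, the class that holds neurogliaform interneurons. Its level there was 14079 ± 6684 CPM (n = 9 libraries), from 3046 to 21371 with a median of 15705. The lowest values came from replicate 2 of rank 4 and replicate 1 of rank 1 (4536 CPM), while the other 7 libraries lay between 10308 and 21371 CPM. Sst-like neurons followed with 4504 ± 3111 CPM (n = 9) and were lower than Lamp5-like in 8 of 8 libraries that held both. Sncg-like neurons had 648 ± 380 (n = 5) and Pvalb-like 396 ± 320 CPM (n = 9), and neither was steadily above the other (3 of 5 libraries).

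Within the Sst-like neurons Npy was concentrated in few cells. A cluster of 21 cells, led by Nos1 and Chodl besides Npy, held 5292 of the 8081 Npy UMIs of the type, a pooled level of 56712 CPM. Nos1 and Chodl mark a rare class of long-range projecting interneurons. The same 21 cells had a pooled Sst level of 35022 CPM and a pooled Crhbp level of 3236 CPM. The other Sst-like clusters had pooled Npy levels of 2183 CPM in 229 cells and 694 CPM in 176 cells. No library held 10 of the 21 cells, so that their levels have no spread over libraries. A single cell gave 80.0% of the Npy UMIs of the Sst-like neurons in replicate 4 of rank 1, 63.8% in replicate 5 of rank 1 and 69.2% in replicate 1 of rank 4.

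Somatostatin, the peptide of interneurons that target distal dendrites, reached 12191 ± 6028 CPM in Sst-like neurons (n = 9), from 2615 to 19536 with a median of 14436. It was lowest in replicate 1 of rank 1 and highest in replicate 5 of rank 4. Among the named types Sncg-like neurons came next with 1075 ± 1440 CPM (n = 5), a mean carried by 2 libraries in which 1 cell gave 59.5% and 84.2% of the Sst UMIs. Pvalb-like neurons had 607 ± 625 CPM (n = 9). An unnamed cluster of 186 inhibitory cells, led by Tac1 and Th, had a pooled Sst level of 7022 CPM together with 842 CPM of Tac1 and 300.2 CPM of Crh.

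Among the named types Crhbp, like Sst, was highest in Sst-like neurons. It reached 608 ± 380 CPM in Sst-like neurons (n = 9), from 275 to 1523 CPM, with the highest value in replicate 2 of rank 1. Pvalb-like neurons had 207 ± 111 CPM (n = 9), lower than Sst-like in 9 of 9 libraries. Oligodendrocytes, endothelial cells and pericytes had means of 4.65, 4.56 and 3.42 CPM. Between clusters Crhbp did not follow Sst. A cluster of 229 Sst-like cells had pooled levels of 569 CPM of Crhbp and 13123 CPM of Sst. In another of 176 Sst-like cells these were 28.1 and 9419 CPM. The unnamed cluster of 186 inhibitory cells had 26.9 CPM of Crhbp and 7022 CPM of Sst.

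Vasoactive intestinal peptide, made by interneurons that mostly inhibit other interneurons, reached 12336 ± 5385 CPM in Vip-like neurons (n = 10), from 4420 to 19530 with a median of 13472. The lowest values were those of replicate 1 of both ranks, 4420 and 5371 CPM. Sncg-like neurons had 3274 ± 3310 CPM (n = 5), lower in 5 of 5 libraries. Within the Vip-like neurons the level was uneven, with 12238 CPM pooled over a cluster of 333 cells and 1365 CPM over a cluster of 43 cells.

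Corticotropin-releasing hormone, the peptide best known for starting the endocrine stress response, was also most abundant in Vip-like neurons. It stood at 453 ± 195 CPM (n = 10), from 145 to 681 with a median of 531. Sncg-like neurons had 69.5 ± 72.0 CPM (n = 5) and Sst-like neurons 29.3 ± 19.8 CPM (n = 9). Vip-like exceeded Sst-like neurons in 9 of 9 libraries. The unnamed cluster with Sst and Tac1 had 317 CPM of Crh as a mean over libraries, so that Crh was not limited to Vip-like cells.

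Neurokinin B, encoded by Tac2, was found in the types that also held Vip. It reached 1514 ± 1333 CPM in Sncg-like (n = 5) and 1166 ± 670 CPM in Vip-like neurons (n = 10), with Sncg-like higher in 4 of 5 libraries. These means differ by less than their SDs, and without replicate 5 of rank 4 the Sncg-like mean was 973 CPM, below the Vip-like mean of all libraries. Lamp5-like neurons had 141 ± 135 CPM (n = 9). There a single cell gave at least 90.9% of the Tac2 UMIs in each of the 5 rank 1 libraries.

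Cholecystokinin was the member shared most widely between inhibitory and excitatory neurons. Its level was 7204 ± 3378 CPM in Sncg-like neurons (n = 5), the class of Cck basket cells, from 4689 to 12386 CPM. L6 IT-like neurons had 2680 ± 714, L5 IT-like 2235 ± 702 and L2/3 IT-like 1550 ± 354 CPM (n = 10 each), with L6 IT-like above L5 IT-like in 10 of 10 libraries. Lamp5-like neurons (1750 ± 407 CPM, n = 9) lay in the range of these IT-like types, and the mean of Vip-like neurons (1337 ± 496 CPM, n = 10) was below it. L5 PT-like neurons had 661 ± 212 CPM (n = 10) and were above astrocytes, at 341 ± 273 CPM, in 10 of 10 libraries. Levels in L6 CT-like (402 ± 395 CPM, n = 10) and L5/6 NP-like neurons (282 ± 247 CPM, n = 9) exceeded those of astrocytes in only 4 of 10 and 1 of 9 libraries.

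Tac1, the precursor of substance P and neurokinin A, reached 1066 ± 368 CPM in Pvalb-like neurons (n = 9), from 614 to 1603 CPM. No other named interneuron type exceeded 22.0 CPM. The unnamed inhibitory cluster led by Tac1 and Th had 808 ± 272 CPM (n = 6), and smaller unnamed inhibitory clusters also held Tac1. Outside the inhibitory neurons the highest mean was in oligodendrocyte precursors, the dividing glial cells that give rise to oligodendrocytes. There it was 59.7 ± 18.6 CPM (n = 10), from 28.2 to 90.7, against 6.10 ± 6.85 CPM in astrocytes, and it was higher than in astrocytes in 10 of 10 libraries. These precursors held 9.60% of all Tac1 UMIs and 5.52% of all UMIs. No single cell gave more than 11.1% of a library's Tac1 UMIs in them.

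Gastrin-releasing peptide, a bombesin-like peptide, was a gene of excitatory neurons. Grp was highest in L5/6 NP-like neurons with 264 ± 99.1 CPM (n = 9), from 126 to 403, and was above L5 PT-like neurons in 8 of 9 libraries. L5 PT-like neurons had 158 ± 45.0, L2/3 IT-like 123 ± 44.4 and L5 IT-like 95.4 ± 30.2 CPM (n = 10 each). L6 IT-like (51.9 ± 21.8 CPM) and L6 CT-like neurons (48.8 ± 25.6 CPM) were lowest among excitatory types and did not differ in a steady direction, with 5 of 10 libraries each way. Astrocytes had 12.8 CPM.

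Adcyap1, which encodes PACAP, a peptide of the same family as Vip, was likewise a gene of excitatory neurons. L5 PT-like neurons had 71.6 ± 29.1 CPM (n = 10), from 31.2 to 112, and L5 IT-like neurons 65.7 ± 15.3 CPM (n = 10). L5 PT-like was above L5 IT-like in 6 of 10 libraries, so these neighbours did not differ beyond their spread. L6 IT-like neurons had 31.0 ± 20.9 and L6 CT-like 13.2 ± 20.4 CPM, and L5 PT-like exceeded L6 CT-like in 9 of 10 libraries. The IT-like means joined unlike clusters. In L6 IT-like neurons, 473 cells led by immediate early genes had 79.5 ± 36.7 CPM (n = 10). Clusters of 952 and 903 cells had 11.5 ± 6.66 (n = 8) and 15.8 ± 11.7 CPM (n = 10). In L5 IT-like neurons, a cluster of 1078 cells had 94.6 ± 27.1 and one of 1583 cells 41.0 ± 13.5 CPM (n = 10 each). L5/6 NP-like neurons, in which Grp was highest, had an Adcyap1 level of only 4.93 ± 4.48 CPM (n = 9). The plot of both genes by excitatory type shows these 2 different orders.

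**Figure D2:**
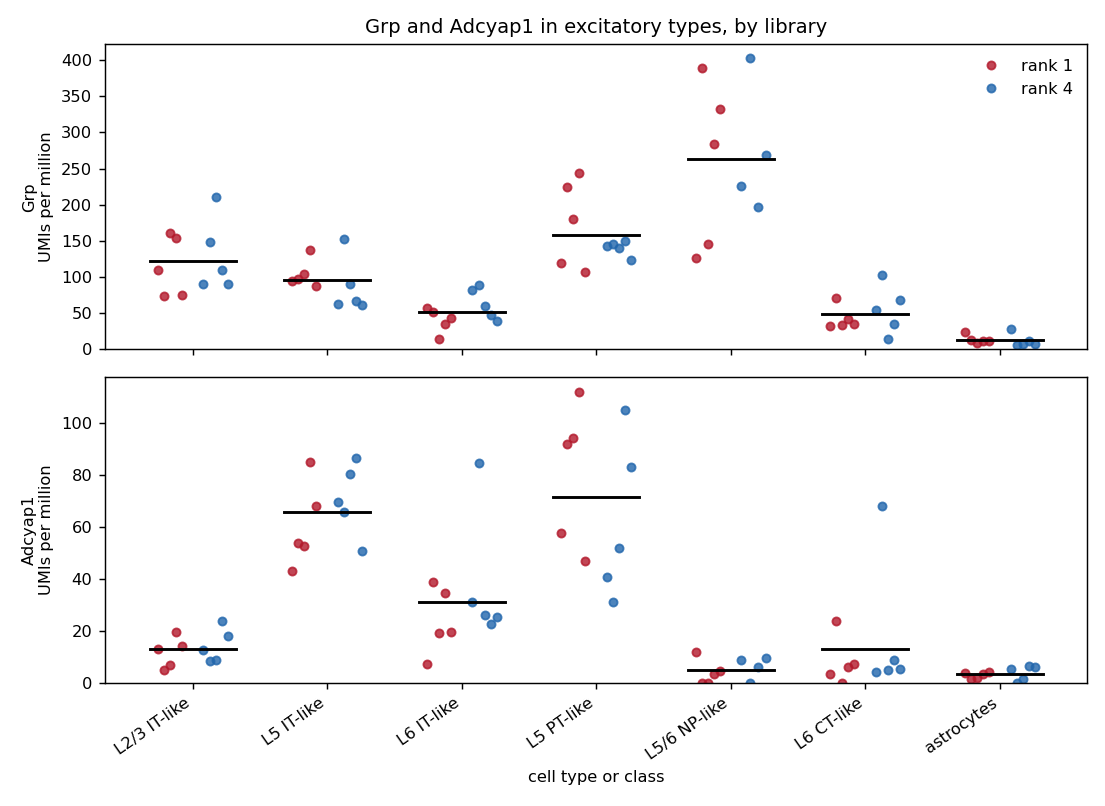
Level of Grp (top) and Adcyap1 (bottom) in CPM (linear axes) for each excitatory type and for astrocytes, with 1 point per library (red, rank 1; blue, rank 4) and a bar at the mean. Grp is highest in L5/6 NP-like neurons (264 CPM), where Adcyap1 is near the astrocyte level, and Adcyap1 is highest in L5 PT-like (71.6 CPM) and L5 IT-like neurons (65.7 CPM).

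Shares of cells with at least 1 UMI were compared after thinning each cell to 1000 UMIs, with shallower cells left out. Astrocytes, a class outside the neurons, gave the background. Npy was detected in 86.8% of Lamp5-like, 41.6% of Sst-like and 8.31% of astrocyte cells. Sst was detected in 95.5% of Sst-like cells against 10.4% of astrocytes. Vip was detected in 83.6% of Vip-like and 37.8% of Sncg-like cells against 3.99% of astrocytes. Cck was detected in 89.3% of Sncg-like, 76.1% of L6 IT-like and 71.7% of L5 IT-like cells, but also in 32.1% of astrocytes. Tac1 was detected in 47.9% of Pvalb-like cells, 5.80% of oligodendrocyte precursors and 0.803% of astrocytes. Tac2 reached 41.9% of Sncg-like and 31.0% of Vip-like cells, and Crh 23.9% of Vip-like cells, against 0.830% and 0.155% of astrocytes. Crhbp reached 24.7% of Sst-like and 13.7% of Pvalb-like cells (astrocytes, 0.401%). Grp reached 18.2% of L5/6 NP-like and 9.22% of L5 PT-like cells (astrocytes, 1.48%), and Adcyap1 5.92% of L5 PT-like and 5.40% of L5 IT-like cells (astrocytes, 0.434%). The thinning left out 43 of 376 Vip-like cells, 100 of 846 L5/6 NP-like cells and 1451 of 8999 astrocytes. Unthinned, when the medians of UMIs differ between types, the share with Npy in astrocytes was 13.5% and the share with Adcyap1 in L5 PT-like cells 22.1%.

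Some peptide genes were detected in the same cells at this depth. Each share is to be read against the share over all cells of the type, given above or beside it. Of the Vip-like cells with Crh, 96.0% also had Vip, and of those with Tac2, 90.3% had Vip. Conversely, 27.4% of Vip-like cells with Vip had Crh, little above the share over all Vip-like cells. In Sst-like cells, 97.2% of those with Npy and 97.4% of those with Crhbp had Sst, near the share over all Sst-like cells. In Sncg-like cells, 40.3% of those with Cck had Vip, near the share over all Sncg-like cells. In L6 IT-like cells, 84.4% of those with Npy had Cck, near the 76.1% over all L6 IT-like cells. Among all inhibitory neurons, 13.9% of cells with Vip had Sst, below the 39.1% over all of them.

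All 10 genes were also counted in cells that are not neurons, at a level that differed between libraries. Over glia (astrocytes, microglia and the oligodendrocyte lineage) and vascular cells together, Npy stood at 12.6 to 249 CPM depending on the library, Sst at 9.01 to 223 CPM and Vip at 3.00 to 110 CPM. Cck stood at 75.1 to 819 CPM, and Grp at 4.20 to 27.1 CPM. Replicate 1 of both ranks had the highest or second highest values of Npy, Sst, Vip and Cck (rank 1: 140, 223, 110 and 681 CPM; rank 4: 249, 189, 93.3 and 819 CPM). In the same 2 libraries Vip was lowest in Vip-like neurons. The level in the highest type was at least 32.3 times that of glia and vascular cells of the same library for Npy, 11.7 times for Sst, 40.2 times for Vip and 5.73 times for Cck.

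**Figure D3:**
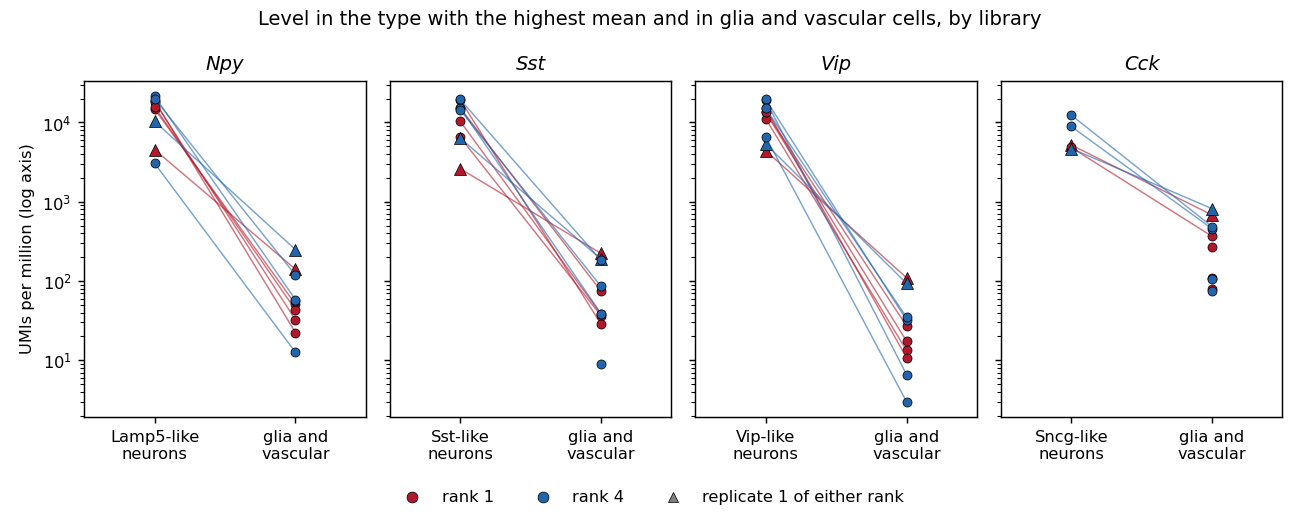
Level of Npy, Sst, Vip and Cck in CPM (log axis) in the type with the highest mean and in glia and vascular cells, with 1 point per library joined by a line where the library held at least 10 cells of the type (red, rank 1; blue, rank 4; triangles, replicate 1 of either rank). The triangles sit at the upper end in glia and vascular cells, at 140 and 249 CPM for Npy, and at the lower end in Vip-like neurons, at 4420 and 5371 CPM.

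The ratio of Npy to Sst UMIs was compared between types outside the interneurons. Summed over libraries, there were 0.678 to 0.928 Npy UMIs per Sst UMI in L2/3 IT-like, L5 IT-like, L5 PT-like, L5/6 NP-like and L6 CT-like neurons, astrocytes, microglia, endothelial cells, oligodendrocytes and pericytes. The ratio was 1.35 in oligodendrocyte precursors and 4.08 in L6 IT-like neurons. By library it varied more widely, in astrocytes from 0.491 to 2.36 and in L5 IT-like neurons from 0.618 to 12, the last from 24 Npy and 2 Sst UMIs. It was above that of astrocytes of the same library in 10 of 10 libraries in L6 IT-like neurons and in 9 of 10 in L5 IT-like neurons and in oligodendrocyte precursors. In L2/3 IT-like neurons it was above in 5 of 10 and in L6 CT-like neurons in 6 of 9. Npy in L6 IT-like neurons stood at 237 ± 102 CPM (n = 10), from 29.5 to 378, against 47.6 ± 37.0 CPM in L5 IT-like neurons and 75.7 ± 78.0 CPM in astrocytes. It was above each of these in 9 of 10 libraries. The exception against astrocytes was replicate 1 of rank 4 (201 against 265 CPM), and against L5 IT-like neurons it was replicate 2 of rank 4 (29.5 against 35.1 CPM). Within the L6 IT-like neurons a cluster of 952 cells, whose leading genes included Oprk1, Npy and Penk, had 319 ± 236 CPM (n = 8), and a cluster of 903 cells had 156 ± 72.1 CPM (n = 10). The remaining 473 cells, led by immediate early genes such as Fos, Egr4 and Npas4, had 213 ± 226 CPM (n = 10). Npy UMIs were detected in 14.5% of L6 IT-like cells, 5.27% of L5 IT-like cells and 12.5% of oligodendrocyte precursors.

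In other excitatory types the interneuron peptides were mostly lower than in astrocytes. Npy was lower in L6 CT-like neurons than in astrocytes in 9 of 10 libraries (46.5 ± 51.6 against 75.7 ± 78.0 CPM) and lower in L5/6 NP-like neurons in 9 of 9. Over all excitatory neurons Sst (56.2 ± 51.6 CPM) and Vip (20.7 ± 21.8 CPM) were each below the astrocyte level in 9 of 10 libraries.

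**Figure D4:**
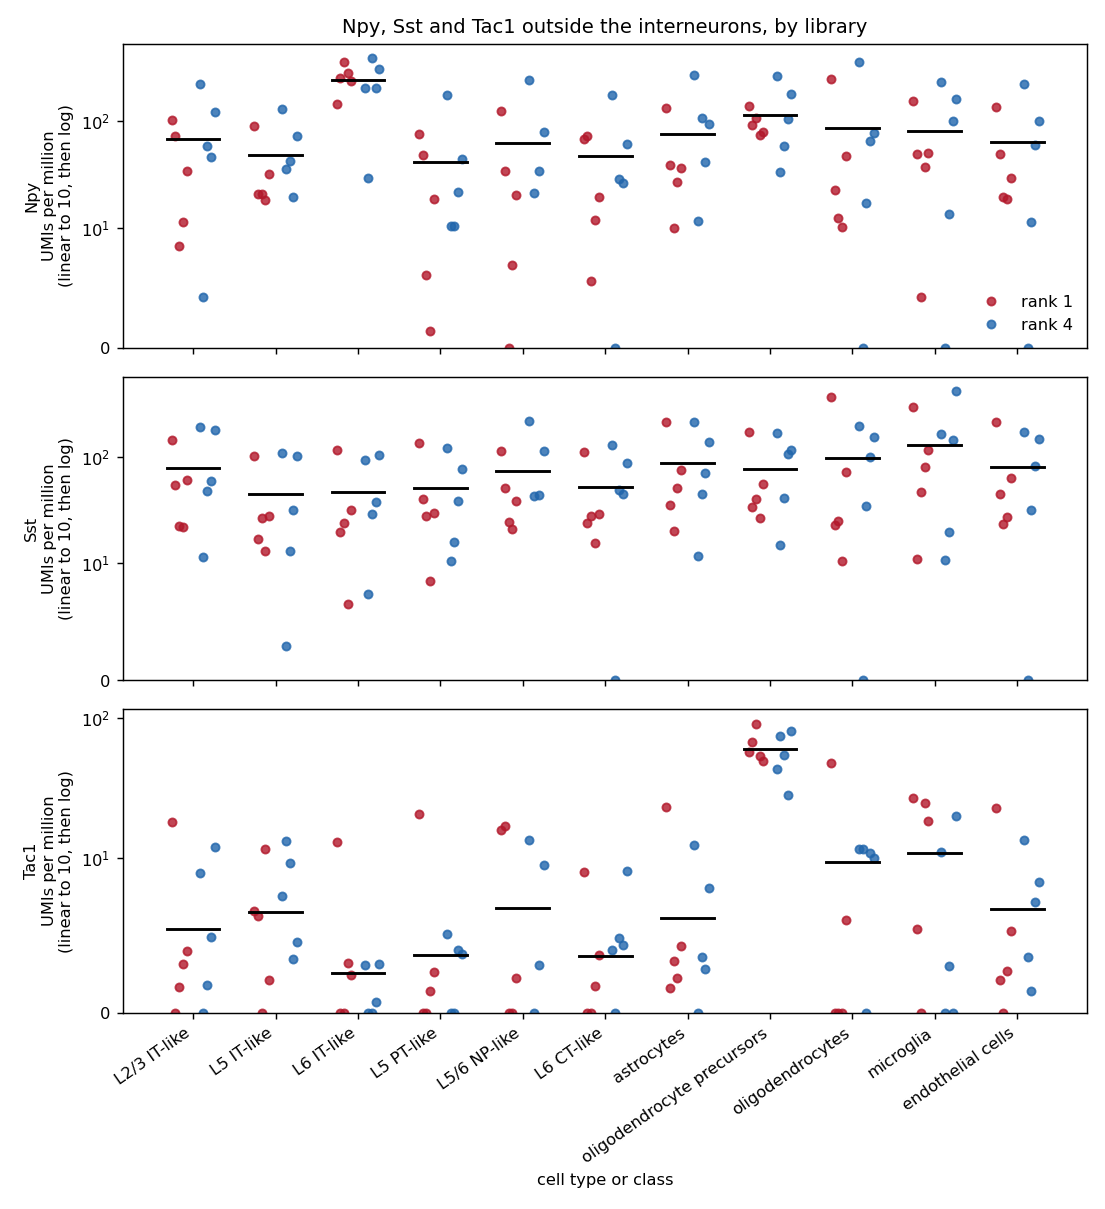
Level of Npy (top), Sst (middle) and Tac1 (bottom) in CPM (linear up to 10, logarithmic above) in excitatory types and glia, with 1 point per library (red, rank 1; blue, rank 4) and a bar at the mean. Npy stands above the other types in L6 IT-like neurons (237 CPM), Tac1 in oligodendrocyte precursors (59.7 CPM), and Sst has no such type.

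For each gene, the 2 genes with the most similar pattern over 21 named types and classes were found among 11648 genes (Pearson correlation of log2 levels plus 10 CPM). The types share libraries and depth, and the correlations describe these clusters only. Sst went with Lypd6b (r = 0.88) and Kctd8 (0.87), and Crhbp with Moxd1 (0.98) and Lhx6 (0.97), a transcription factor of interneurons from the medial ganglionic eminence. Vip went with Grpr, the receptor of Grp (0.94), and Htr3a, a serotonin receptor subunit (0.93). Crh also went with Grpr (0.95), and with Cbln4 (0.90), while Tac2 went with Htr3a (0.97) and Sp8 (0.94). Npy went with Gdf10 (0.90) and Alk (0.88), Tac1 with Syt2 (0.89) and Kcnab3 (0.89), and Cck with Necab1 (0.87) and Kcnq5 (0.86). Grp went with Kcnh3 (0.93) and Fras1 (0.92), and Adcyap1 with Mas1 (0.92) and Crhr1, a receptor of corticotropin-releasing hormone (0.92). Htr3a, Syt2 and Cbln4 were also among the naming markers.

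The second question was whether social rank went with the level of these genes within a cell type. Counts were summed per library and type and tested with edgeR's quasi-likelihood test over all genes of the type, with the software version in the matrix header (replicates 1 to 3 against 4 and 5) as a covariate and Benjamini-Hochberg adjustment within the type. A fold change is rank 1 minus rank 4 on the log2 scale. Over 17 types and classes, 76 tests of the 10 genes were made, and 0 passed an adjusted p of 0.05, against 0.0101% of the 118612 tests of all genes. At an unadjusted p under 0.05 there were 4 of the 76 (5.26%, against 3.13% of all tests) by edgeR and 2 by DESeq2 (2.63%, against 2.15% of all tests). The 4 were all lower in rank 1, as were 1.65% of all tests. The fold change was below 0 in 56 of the 76 tests (73.7%, against 50.1% over all genes), with a median of -0.29, and the tests of 1 gene in several types share libraries. Tests over all excitatory or all inhibitory neurons also hold the cells of the types tested beside them. Glia and vascular cells are among the tests too, so the 76 are not separate results. By gene, 15 of 16 tests of Sst, 11 of 13 of Npy, 15 of 17 of Cck and 6 of 8 of Vip were below 0. None of the 2 tests of Crh and the 2 of Crhbp was.

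In the types where the genes were most abundant the ranks overlapped. Sst in Sst-like neurons was 2615, 6518, 10351 and 15261 CPM in replicates 1, 2, 4 and 5 of rank 1 and 6353, 15308, 14436 and 19536 CPM in replicates 1, 3, 4 and 5 of rank 4, the libraries with at least 20 such cells. The fitted difference was -0.80 (SE 0.36; adjusted p = 0.9987 by edgeR's quasi-likelihood test with Benjamini-Hochberg adjustment), and rank 1 was lower in 3 of 3 pairs of the same replicate number. With libraries of at least 10 cells, which adds replicate 3 of rank 1 at 19345 CPM, the difference was -0.28. Npy in the Sst-like neurons differed by -0.40 (SE 0.62), by 0.09 without replicate 4 of rank 1 and by -1.93 without replicate 2 of rank 1. The differences were -0.25 (SE 0.36) for Vip and 0.10 (SE 0.26) for Crh in Vip-like neurons, with 3 libraries per rank. Tac2 in the same neurons differed by -0.08 (SE 0.24), Crhbp in Sst-like neurons by 0.12 (SE 0.34) and Cck in L6 IT-like neurons by -0.28 (SE 0.20). Grp in L5/6 NP-like neurons differed by 0.09 (SE 0.27), Adcyap1 in L5 PT-like neurons by 0.13 (SE 0.28) and Tac1 over all inhibitory neurons by -0.11 (SE 0.38). The adjusted p-values of these differences in edgeR's quasi-likelihood test ran from 0.9134 to 1.0. Lamp5-like, Pvalb-like and Sncg-like neurons had too few cells per library for this test. With at least 10 cells per library 0 of 83 tests passed (0% of all genes), and the Npy difference in Lamp5-like neurons was 0.33 (SE 0.50; edgeR adjusted p = 0.998) and the Tac1 difference in Pvalb-like neurons -0.19 (SE 0.29; edgeR adjusted p = 0.9979).

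The other tests with an unadjusted p under 0.05 were in deep-layer excitatory types at low counts. Npy in L6 CT-like neurons was 67.0, 5.53, 11.9 and 19.6 CPM in rank 1 and 174, 28.8, 26.3 and 60.7 CPM in rank 4, for replicates 1, 3, 4 and 5. Rank 1 was the lower of each pair, while the ranks overlapped as groups. The fitted difference was -1.29 (SE 0.36; edgeR adjusted p = 0.9995). Sst in the same neurons was 112, 27.6, 15.3 and 28.5 CPM in rank 1 and 130, 48.1, 44.2 and 87.3 CPM in rank 4, a difference of -0.90 (SE 0.33; edgeR adjusted p = 0.9995). Sst in L5/6 NP-like neurons differed by -1.08 (SE 0.37; edgeR adjusted p = 0.9999), with 2 to 49 UMIs per library. The mean levels of Npy and Sst in these types lie below those in astrocytes, and Npy in glia and vascular cells was itself lower in rank 1 in 4 of 5 pairs (57.9 ± 47.4 against 99.0 ± 92.2 CPM, n = 5 per rank), as was Sst in 3 of 5 (80.2 ± 81.7 against 101 ± 82.2 CPM). The part of this background in the differences was not tested.

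With the replicate number as a block in place of the header version, 7 of the 76 tests passed, against 0.349% of all genes, and 7 of the 7 were lower in rank 1. They were Npy in L6 CT-like neurons (-1.45, edgeR adjusted p = 0.000168), Sst-like neurons (-2.37, 0.000180), astrocytes (-1.12, 0.00621) and L5 IT-like neurons (-0.66, 0.0377), Sst in L6 CT-like (-1.05, 0.0164) and L5/6 NP-like neurons (-1.16, 0.0217), and Cck in L6 CT-like neurons (-0.68, 0.0194). Without the block Npy differed by -0.40 in Sst-like neurons, -1.06 in astrocytes and -0.71 in L5 IT-like neurons, and Cck by -0.61 in L6 CT-like neurons. For Npy in Sst-like neurons the blocked fit rests on replicates 1, 4 and 5, which had both ranks, with 314, 794 and 4295 CPM in rank 1 and 4896, 5296 and 7047 CPM in rank 4. Among these 6 libraries are the 3 named above in which a single cell gave 63.8% to 80.0% of the Npy. Npy in L5 IT-like neurons was lower in rank 1 in 5 of 5 pairs (35.9 ± 29.8 against 59.3 ± 43.0 CPM), and in astrocytes in 4 of 5 (48.2 ± 46.8 against 103 ± 98.0 CPM). At an unadjusted p under 0.05 the blocked fit had 36 of the 76 tests (47.4%, against 9.78% of all), of which 35 were lower in rank 1, as were 5.67% of all tests. With no filter on low counts and no block, 5 of 169 tests passed, against 0.0412% of all genes, again all lower in rank 1.

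**Figure D5:**
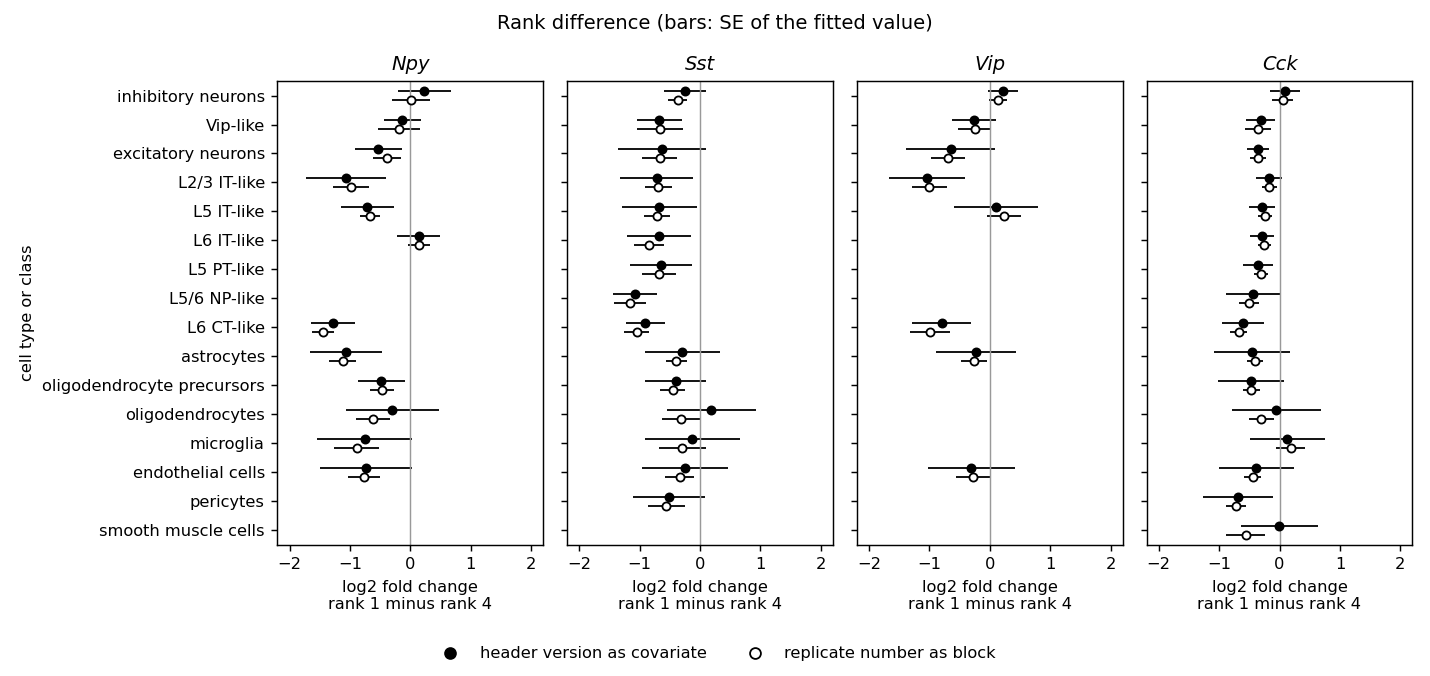
Fitted difference between ranks (log2 fold change, rank 1 minus rank 4, with bars for the SE) of Npy, Sst, Vip and Cck by tested cell type or class. Filled points have the header version as covariate and open points the replicate number as block. Sst-like neurons were tested but are not drawn. Most values lie left of 0 in neurons and glia alike, Npy in L6 IT-like neurons does not (0.14), and the bars of the blocked fit are shorter.

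Leaving out replicate 1 of rank 1, the library with the highest Sst and Vip levels in glia and vascular cells, raised the number of tests at an unadjusted p under 0.05 from 4 to 26 of 75 (34.7%, against 4.58% of all tests), all lower in rank 1 as were 2.70% of all tests, and 0 passed the adjusted threshold, which 0.00667% of all tests did. Npy in astrocytes then differed by -1.73 and in L6 CT-like neurons by -1.62, and Sst in L6 CT-like neurons by -1.52. Sst in Sst-like neurons differed by -0.53. Among the libraries of replicates 4 and 5 alone, 42 of 87 tests had an unadjusted p under 0.05 (48.3%, against 5.04% of all), and among replicates 1 to 3 alone 2 of 65 (3.08%, against 1.4% of all). Replicates 4 and 5 alone give at most 2 libraries per rank, shared by all of these tests. There 0 tests passed the adjusted threshold, which 0.00799% of all tests did. Without another single library of rank 4, the number at an unadjusted p under 0.05 was 12 of 83 without replicate 2 or without replicate 3 (14.5%, against 3.45% and 3.19% of all tests), 8 of 82 without replicate 4 (9.76%, against 3.29%), 4 of 76 without replicate 1 (5.26%, against 3.67%) and 2 of 75 without replicate 5 (2.67%, against 1.86%). For rank 1 it was 8 of 81 without replicate 5 (9.88%, against 3.66%), 6 of 82 without replicate 2 (7.32%, against 3.18%), 5 of 83 without replicate 3 (6.02%, against 3.08%) and 4 of 85 without replicate 4 (4.71%, against 2.01%).

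Genes that receive or process the peptides were taken as whole lists. Of 15 receptor genes 11 could be tested, in 61 tests, and 0 passed. At an unadjusted p under 0.05 there were 5 (8.2%, against 3.13% of all genes). Of these, Npy2r in L6 IT-like neurons (0.91), Npy5r in all excitatory neurons (0.53), Sstr1 in L2/3 IT-like (0.82) and Sstr2 in L6 CT-like neurons (0.51) were higher in rank 1, and Adcyap1r1, the PACAP receptor, in excitatory neurons was lower (-0.29). Of the 165 tests of 11 secretory pathway genes 0 passed, and 7 had an unadjusted p under 0.05 (4.24%, against 3.13% of all genes). The prohormone convertase gene Pcsk1 was lower in rank 1 in excitatory neurons (-0.32), L5 PT-like (-0.75) and L6 IT-like neurons (-0.61), and its inhibitor gene Pcsk1n in L5/6 NP-like (-0.50) and Vip-like neurons (-0.65). The granin gene Chgb was lower in L5/6 NP-like (-0.62) and higher in L2/3 IT-like neurons (0.43). With the replicate block, 1 test of each list passed, against 0.349% of all genes. At an unadjusted p under 0.05 the blocked fit had 12 of the 61 receptor tests (19.7%), 10 of them higher in rank 1, and 37 of the 165 secretory pathway tests (22.4%), 31 of them lower in rank 1, against 9.78% of all genes.

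Levels summed over all inhibitory neurons depend on which types they hold. Sst-like cells were 19.2% ± 3.83 of the inhibitory neurons in rank 1 and 21.0% ± 3.66 in rank 4, Pvalb-like 16.5% ± 2.68 and 16.3% ± 6.63, and Vip-like 19.6% ± 3.60 and 18.7% ± 8.55 (SD, n = 5 each). Lamp5-like cells were 13.7% ± 4.90 and 14.9% ± 6.52, and Sncg-like cells 7.20% ± 2.42 and 5.44% ± 1.36. The smallest p of these 5 two-sided exact permutation tests was 0.206, for Sncg-like cells, and the adjusted p was 0.952 for each. The smallest p that 5 libraries against 5 allow is 0.00794. Unnamed cells, which lower the share of every type, were 2.38% to 34.3% of the inhibitory neurons depending on the library.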

How the data were processed

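Single-cell RNA was measured with the 10x Genomics droplet system in 10 libraries of pooled tissue. The deposited matrices held raw UMI counts for each gene in each barcode. Per the file headers they were written by software version 3.1.0 (replicates 1 to 3) or 4.0.0 (replicates 4 and 5), and the submitters' processing notes name Cell Ranger 4.0.0 and mm10. How the authors called cells is not given in the sources used here. The 10 genes and all lists were chosen with earlier results of these data known.

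Only genes in both gene lists were used. Kept cells had 500 or more genes and no more than 15% of UMIs from mitochondrial genes. Doublets were found with Scrublet in scanpy 1.11.5 (expected rate 0.06). In replicate 1 of rank 1 the caller marked 2 of 6126 barcodes and was judged to have failed, so the median score of the other libraries, 0.238, was applied, and 3915 barcodes were removed in all. Clustering used 2000 variable genes without the 10 members, 30 principal components, 15 nearest cells, shared-neighbour weights and the Leiden method of igraph 0.11.9 at resolution 1. A first partition with other weights changed with the rounding of the computer, and the shared-neighbour weights were chosen after results of it had been seen. A cluster took a class name where its markers' mean log2 ratio over the median cluster was at least 1 and led the next class by 0.5. Types rest on these markers, and the authors may have divided the cells differently.

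Counts were summed per library and type (at least 20 cells, at least 3 libraries per rank) and tested with edgeR 4.0.16 (TMM, filterByExpr, quasi-likelihood test, Benjamini-Hochberg adjustment). On simulated counts for L6 CT-like neurons the test recovered 78 of 100 genes changed by 1 and 99 of 100 changed by 2 on the log2 scale. DESeq2 1.42.0 was an alternative. Named for the rank comparison were each gene's highest tested type and every test with an unadjusted p under 0.05. Tests called only under the replicate block, and sub-clusters, were named after their values were seen. Libraries with the same replicate number deviated together from their rank's mean in 5 of 5 pairs, with correlations over genes of 0.691 to 0.872 in excitatory neurons, so the number was taken as a pairing, although not every library correlated best with its own number. Measured from the mean of rank and header version, the correlations were 0.154 to 0.763 in excitatory neurons, where another number correlated more highly in 3 of 5, and as low as 0.098 in inhibitory neurons. Replicates 4 and 5 are the only ones of their header version, so by this measure their correlations are equal by construction and not separate. The labels do not say what a number shares. Each library pooled mice, so p-values measure the spread between pools.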

Additional observations from a re-analysis of the deposited data

Results flagged for a closer look

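Among 46 groups of 4 or 5 libraries tested for a value far from the rest, 7 were found, and chance alone gives about 1 in 20. In 6 of the 7 the library was replicate 1 of rank 1. Its Npy level in Lamp5-like neurons was 4536 CPM, against 14776 to 18788 CPM in the other rank 1 libraries. In glia and vascular cells its Npy level was 140 CPM (others, 22.4 to 50.9), its Sst level 223 CPM (28.6 to 74.6) and its Vip level 110 CPM (10.8 to 27.1). Tac1 stood at 29.6 CPM there (10.5 to 12.9) and Tac2 at 24.9 CPM (1.97 to 4.76). In replicate 2 of rank 4, Lamp5-like cells were 26.2% of the inhibitory neurons, against 9.76% to 14.5% in the other rank 4 libraries. That library held only 42 inhibitory neurons, 11 of them Lamp5-like. Its unnamed share was 2.38%, against 25.9% to 32.3% in the other rank 4 libraries.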

How the results depend on the processing

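The count of neuropeptide tests past the threshold was 0 in the reported fit, 7 with the replicate block and 5 with no filter on low counts (0.0412% of all genes passed there). Those 5 were lower in rank 1: Npy in L6 CT-like (-1.29) and L2/3 IT-like neurons (-1.09) and in astrocytes (-1.08), Sst in L6 CT-like neurons (-0.90) and Vip in L2/3 IT-like neurons (-1.07). It was 0 under the other alternatives and with any 1 library left out. The replicate block changed the call of no other neuropeptide test than the 7 named in the report.

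The level of Crhbp in Sst-like neurons moved to 993 CPM with the stricter cell filter, and 122 of 123 recomputed levels moved by less than 1 SD. Most of these left out 1 library, which cannot move a mean by 1 SD, so the count says little about robustness. Types that were not named under a setting were not counted. Of 20 recomputed shares of cells with a UMI, as means over libraries, 11 moved by more, all upward. Thinned to 2000 UMIs, Grp was detected in 34.8% of L5/6 NP-like cells (18.1% at 1000), Adcyap1 in 10.8% of L5 PT-like (5.33%), Crhbp in 39.5% of Sst-like (27.4%), Crh in 34.0% of Vip-like (23.6%) and Tac1 in 58.6% of Pvalb-like cells (45.5%). Under another seed of the clustering, added after seeing the data, no cluster was named Sncg-like, so the highest types of Cck and Tac2 rest on this partition.

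Of 335 recomputed rank differences 27 changed sign, none of them past a threshold. With replicates 4 and 5 alone, Adcyap1 in L5 PT-like neurons was -0.295, Cck in L6 IT-like 0.000419, Crh in Vip-like -0.0244 and Crhbp in Sst-like neurons -0.25. With replicates 1 to 3 alone, Grp in L5/6 NP-like was -0.37 and Npy in Sst-like neurons 0.45. Adcyap1 was also -0.0837 with at least 50 cells per library and -0.36 with the stricter filter. Crhbp was -0.29 with the other seed and -0.56 with the replicate block, which gave Tac1 in inhibitory neurons 0.0479. Tac2 in Vip-like neurons was 0.50 with at least 10 cells per library. Leaving out 1 library at a time gave ranges of -0.10 to 0.55 for Adcyap1 in L5 PT-like, -0.35 to 0.48 for Crh and -0.32 to 0.12 for Tac2 in Vip-like, -0.50 to 0.39 for Crhbp and -1.93 to 0.0925 for Npy in Sst-like, -0.10 to 0.38 for Grp in L5/6 NP-like and -0.40 to 0.49 for Tac1 in inhibitory neurons. The cause of these changes was not tested.

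Differences in type shares (rank 1 minus rank 4, percentage points) changed sign for Sst-like cells (2.23 with the stricter filter, 3.22 with the other seed), Pvalb-like cells (-2.91 and -0.14) and Vip-like cells (-0.16 with the other seed). The difference for Vip-like cells was 0.824 as reported and 5.38 with the stricter filter (two-sided exact permutation p = 0.0952, adjusted p = 0.476). Leaving out 1 library gave -2.22 to 1.63 for Pvalb-like, -0.92 to 3.88 for Vip-like and -3.22 to 1.58 for Lamp5-like cells. Interneuron types held as few as 21 cells in a library that entered a fit. Of these types only Vip-like neurons were in the simulation, and the recovery there is not given here.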
